A study of Mus musculus with 16 samples.

Results

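Whether ovalbumin (OVA), an egg protein used as a model allergen, changed the lung transcriptome differently in 2 mouse lines was measured as the line by allergen interaction. It was computed gene by gene as the change from phosphate-buffered saline (PBS), the control exposure, to OVA in BALB/c minus the same change in BALB-RAG. All 16 arrays of the series entered it, with 4 arrays in each of the groups titled BALB/c_PBS, BALB/c_OVA, BALB-RAG_PBS and BALB-RAG_OVA. Each array held RNA of whole lung taken on day 22, 1 day after the last exposure. The titles name no allele, and the Rag gene concerned, the age and sex of the mice and the number of animals per array are not given in the sources used here. No source says that replicates were separate animals, so a p-value here sets a difference against the spread between arrays, and that spread may be technical. Replicates 1 and 2 and replicates 3 and 4 were treated as 2 sets, with the difference between sets as a term of the model.

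Rag enzymes cut DNA to assemble the antigen receptor genes of lymphocytes, and mice without them lack mature T and B cells. In allergic airway disease, T helper 2 cells release cytokines that drive mucus production in the airway epithelium, alternative activation of macrophages, recruitment of eosinophils and antibody class switching. The comparison asks which lung transcripts respond to OVA differently in the line named for a Rag defect. A positive interaction is a response that went further upward in BALB/c or further downward in BALB-RAG. A negative one is a response that went further upward in BALB-RAG or further downward in BALB/c. Interactions and responses are log2 differences with their standard errors and n = 4 per group, and levels are log2 intensity.

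In the 3 stretches of the deposited table used here, each probe set label stood a fixed number of rows away from its own values, and gene names rest on moving the labels back. For the second stretch, 7500 of 14300 labels, the direction first recorded was 47 rows above, and 47 rows below was used. Probe sets of the same gene there had a median correlation across arrays of 0.618 at 47 rows below, 0.0272 at 47 rows above and 0.129 as deposited. With that stretch read 47 rows above, 1221 genes had a called interaction, but its gene names then stand beside other values. This left 9866 named genes, of which 7276 exceeded log2 4, taken as background, on at least 4 arrays. Median intensity per array was 18.2 to 20.5. The lung surfactant gene Sftpc stood between 14.00 and 14.55 on every array.

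Lymphocyte transcripts were in part at odds with the name BALB-RAG, and these arrays are therefore called by their labels. The mean level of 13 B cell genes went with the name after PBS, at 4.80 to 5.16 on the arrays labelled BALB-RAG_PBS against 5.58 to 6.09 in BALB/c_PBS, with no overlap. The mean level of 16 T cell genes was 4.44 to 4.68 on the arrays labelled BALB-RAG_PBS, against 4.32 to 4.65 on the BALB/c_PBS arrays, and these ranges overlapped close to background. On the arrays labelled BALB-RAG_OVA it was 5.09 on replicate 2 and 3.63 to 3.76 on the others. The mean of 8 immunoglobulin and plasma cell genes was 8.34 on the same replicate 2 and 5.36 to 5.40 on the other 3. The mean level of 9 natural killer cell genes was 4.44 to 5.92 in BALB/c_PBS, above every array labelled BALB-RAG. It was 3.82 to 4.23 in BALB-RAG_PBS and 4.0 to 4.34 in BALB-RAG_OVA, close to background. Rag2 was at background in all groups (at most 4.2 on any array), which checks nothing, and Rag1 has no realigned label. Without BALB-RAG_OVA replicate 2 the interaction was called for 1103 genes. In whole lung, fewer cells of a type and less RNA per cell cannot be told apart.

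The interaction passed an adjusted p of 0.05 (limma, Benjamini-Hochberg) for 1214 of 7276 genes, or 16.7%. Of these, 603 were positive (8.29% of genes tested) and 611 negative (8.4%). Counts in the gene lists below are to be read against these shares, except counts from a replicate set alone. The OVA response itself was called for 1820 genes in BALB/c (25.0%; 972 rose and 848 fell) and for 67 in BALB-RAG (0.921%; 38 rose and 29 fell). The split in BALB/c became 847 rises and 1205 falls when each array was centred on its median. Among the positive interactions the median response was 1.06 in BALB/c and -0.16 in BALB-RAG, and 559 of the 603 had the larger change in BALB/c. Among the negative ones the medians were -0.64 and 0.24, and 504 of the 611 had the larger change in BALB/c. Positive interactions were the larger ones, with 128 over 2 in size against 34 of the negative ones. Every called interaction had the same sign in replicates 1 and 2 as in replicates 3 and 4, which both entered the fit.

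**Figure D1:**
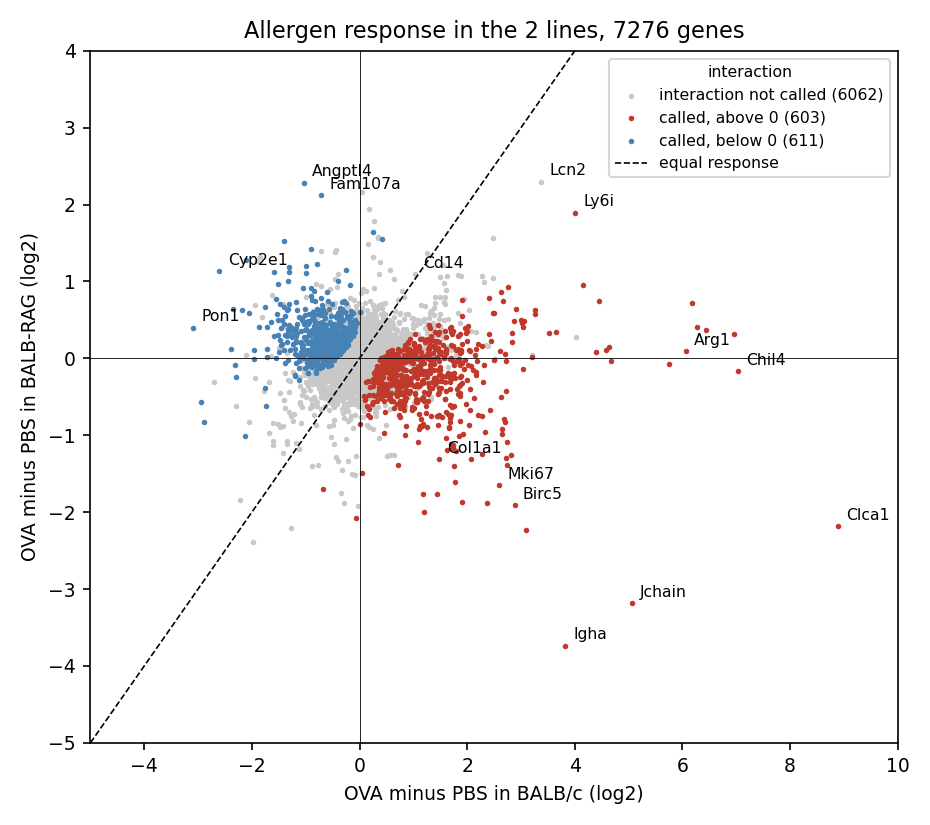
OVA response in BALB/c (horizontal axis) and in BALB-RAG (vertical axis), both as log2 OVA minus PBS, for each of the 7276 genes; red and blue points are the 603 positive and 611 negative interactions called by limma, and the dashed line marks equal responses. Most coloured points spread along the horizontal axis, and Lcn2, Ly6i and Cd14 rose in both lines.

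Mucus genes of the airway epithelium were among the largest positive interactions. Of 12 mucous epithelium genes tested, 8 had a called positive interaction and none a negative one, and the median interaction was 2.14, against -0.02 over all genes. Fcgbp encodes a mucus protein that binds immunoglobulin. Its level was 5.0, 4.63, 4.70 and 4.61 on the BALB/c_PBS arrays and 9.15, 9.88, 9.25 and 9.34 on the BALB/c_OVA arrays. The BALB-RAG_PBS arrays were at 5.07, 4.71, 4.77 and 4.98 and the BALB-RAG_OVA arrays at 5.01, 5.0, 4.63 and 4.75. The 4 BALB/c_OVA arrays stood far above the other 12, which overlapped. The interaction of Fcgbp was 4.70 ± 0.21 (adjusted p = 1.11e-08, limma).

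Clca1, a secreted protein of goblet cells, had the largest estimate of all genes, 11.08 ± 1.35 (adjusted p = 1.11e-04, limma). It stood at 13.29, 13.30, 13.52 and 13.70 on the BALB/c_OVA arrays and at 3.44 to 5.74 after PBS in that line. On the arrays labelled BALB-RAG it varied widely, from 2.80 to 7.53 after PBS and from 2.78 to 6.11 after OVA. With values under log2 4 set to 4, its interaction was 10.32. Slc26a4, the anion exchanger pendrin, followed with 5.46 ± 0.52, Agr2, a chaperone needed to fold mucins, with 3.15 ± 0.58, and Muc5b, a gel-forming mucin, with 2.53 ± 0.44. Tff2, a trefoil peptide secreted with mucus, had 2.51 ± 0.51, Itln1, a lectin, 1.76 ± 0.43, and Galnt7, an enzyme of mucin glycosylation, 1.20 ± 0.25.

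Genes of alternatively activated macrophages and chitinase-like proteins showed a similar size of difference. Of 14 tested, 9 had a positive interaction and 1 a negative one (the receptor Flt1, -1.16 ± 0.15), with a median of 2.19. Chil4, a chitinase-like protein secreted in allergic lung, was 5.37, 4.51, 4.68 and 5.29 on the BALB/c_PBS arrays and 11.83, 12.41, 11.56 and 12.19 on the BALB/c_OVA arrays. The BALB-RAG_PBS arrays held 5.05, 4.61, 4.73 and 5.48 and the BALB-RAG_OVA arrays 4.53, 4.92, 5.11 and 4.65, so the OVA and PBS arrays of that line overlapped. The interaction of Chil4 was 7.20 ± 0.35 (adjusted p = 2.25e-08, limma). Its neighbour Chil3, a named exception picked after its values were seen, rose in both lines, by 1.50 ± 0.17 in BALB/c and 0.80 ± 0.17 in BALB-RAG. The interaction of Chil3 was 0.69 ± 0.24 and missed the threshold (adjusted p = 0.0638, limma). After PBS it was at 11.78 to 12.54 in BALB/c and 11.94 to 12.29 in BALB-RAG, which overlapped.

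Both chitinase-like genes lie on chromosome 3, and their promoters are shown because the pair differed in these responses. The windows, from RefSeq on GRCm38.p6, hold 250 bases before and 50 after the start, at chr3:106219430-106219729 for Chil4 and chr3:106167515-106167814 for Chil3, both on the minus strand. Capitals mark TTCNNNGAA, the pattern bound by STAT factors, searched on both strands, which read the same.
Chil4: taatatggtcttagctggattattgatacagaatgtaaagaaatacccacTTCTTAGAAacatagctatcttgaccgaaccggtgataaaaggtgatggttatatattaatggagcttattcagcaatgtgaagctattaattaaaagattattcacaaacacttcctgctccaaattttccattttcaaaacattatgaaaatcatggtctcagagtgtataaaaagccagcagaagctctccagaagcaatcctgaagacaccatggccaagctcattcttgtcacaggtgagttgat
Chil3: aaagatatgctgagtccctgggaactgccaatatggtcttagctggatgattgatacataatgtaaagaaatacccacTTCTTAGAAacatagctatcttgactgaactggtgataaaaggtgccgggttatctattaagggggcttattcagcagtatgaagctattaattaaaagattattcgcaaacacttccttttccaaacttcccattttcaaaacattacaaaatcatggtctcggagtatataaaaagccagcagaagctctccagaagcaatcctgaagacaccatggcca
Each window holds 1 match, 200 bases before the start in Chil4 and 172 bases before it in Chil3. Placed at a single offset of 28 bases without gaps, 200 of 272 bases were identical (73.5%). This understates the likeness of the windows wherever 1 of them has gained or lost a base, and no alignment with gaps was made. The pattern is in 8.3% of all 32851 promoters of the table, and a match of letters shows no binding.

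Arg1, the arginine-cleaving enzyme of alternatively activated macrophages, was at 2.23 to 2.56 in BALB/c_PBS and at 9.14, 9.82, 7.96 and 6.83 in BALB/c_OVA. It was below background on all 8 arrays labelled BALB-RAG (2.34 to 2.96). Its interaction was 5.97 ± 0.58, and 4.44 with values under log2 4 set to 4 (adjusted p = 1.07e-04, limma). Ccl8, a chemokine for eosinophils and T helper 2 cells, had 6.07 ± 0.47 and Irf4, a transcription factor of macrophages and plasma cells, 2.60 ± 0.25. AA467197 had 5.83 ± 0.44, and 4.99 with the floor at log2 4.

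**Figure D2:**
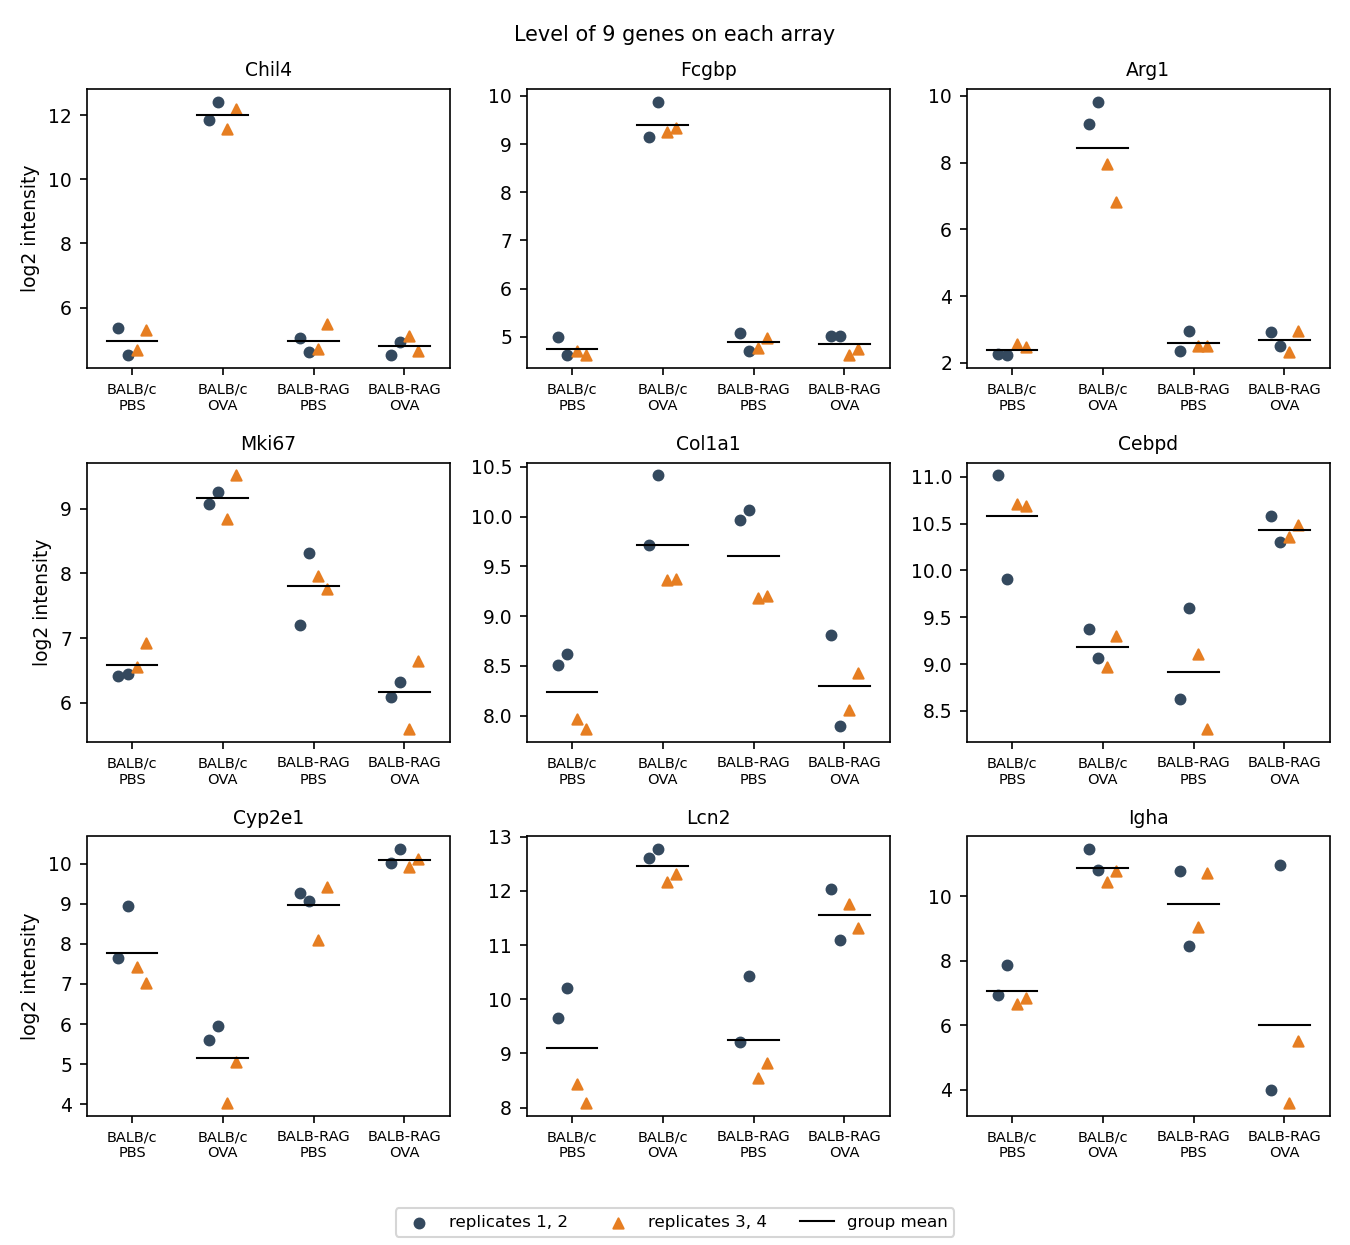
Log2 intensity of 9 genes, picked after their values were seen, on each array of the 4 groups; circles are replicates 1 and 2, triangles replicates 3 and 4, and lines are group means. Chil4, Fcgbp and Arg1 are high on the 4 BALB/c_OVA arrays alone, while Mki67, Col1a1 and Cebpd move in opposite directions in the 2 lines.

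Granulocyte genes were less uniform. Rnase2a, a ribonuclease of the eosinophil-associated family, was 10.77, 11.59, 9.98 and 9.59 on the BALB/c_OVA arrays and 3.11 to 5.30 on the other 12. Its interaction was 6.63 ± 0.58 (adjusted p = 9.63e-06, limma), and 6.16 with the floor at log2 4. Of 5 eosinophil genes tested, Rnase2a alone was called (20.0%, against 8.29% of all genes). The adhesion receptor Adgre4 (1.89 ± 0.67, adjusted p = 0.0681, limma), the receptor genes Siglecf (0.10) and Il5ra (0.47) and the leukotriene synthase Ltc4s (-0.74) were not called. None of 9 neutrophil genes was called by limma at the adjusted threshold and 3 had an unadjusted p under 0.05, with a median of -1.49. Their mean level varied by single arrays, from 5.67 to 8.41 in BALB/c_PBS and from 5.78 to 8.21 in BALB-RAG_PBS, and the smallest p belonged to Il1r2, a decoy receptor for interleukin 1 (-1.82 ± 0.67, adjusted p = 0.079). The 1 mast cell gene tested, Kit, had -0.20 ± 0.17.

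Many antigen presentation and macrophage genes rose in BALB/c, 15 of 18 and 11 of 15, against 13.4% of all genes. Of 18 genes of dendritic cells and MHC class II, 13 had a positive interaction, with a median of 1.58 and median responses of 1.67 and 0.16. Cd86, a costimulatory ligand for T cells, was 4.53 to 4.83 in BALB/c_PBS and 7.09, 6.58, 6.79 and 6.54 in BALB/c_OVA. The arrays labelled BALB-RAG held 4.46 to 4.53 (PBS) and 4.44 to 4.67 (OVA). Its interaction was 1.95 ± 0.17 (adjusted p = 9.63e-06, limma). The class II chains H2-Eb1 (1.60 ± 0.18) and H2-Aa (1.10 ± 0.14) and the peptide loader H2-DMa (1.80 ± 0.26) went the same way.

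Of 15 macrophage genes, 7 had a positive interaction and the median was 0.92. C1qb and C1qa, subunits of the first complement component made by macrophages, had 3.19 ± 0.29 and 2.49 ± 0.28. Ms4a7, a membrane protein of macrophages, had 3.20 ± 0.62, Trem2, a lipid receptor, 3.19 ± 0.67, and Itgax, the integrin CD11c, 2.27 ± 0.38. Fcgr1, an immunoglobulin receptor, had 1.86 ± 0.52, and Csf1r, the receptor for macrophage growth factor, 0.92 ± 0.23. Of 12 complement and acute phase genes, 3 were called, C1qa, C1qb and the receptor C3ar1 (4.47 ± 0.64, and 4.01 with the floor at log2 4). The prostaglandin receptor Ptger4 (1.51 ± 0.19), the thromboxane synthase Tbxas1 (1.58 ± 0.34) and Arg1 were the 3 called of 16 genes of arginine and eicosanoid metabolism. Positive calls made up 46.7% of the macrophage list, 25.0% of the complement list and 18.75% of the last, against 8.29% of all genes.

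Chemokines and interferon-induced genes formed another group of positive interactions. Of 26 chemokines and receptors, 13 were positive and 1 negative (Cxcl14, -1.16 ± 0.33), with a median of 1.25. Of 30 interferon response genes, 18 were positive and none negative, with a median of 1.46 and median responses of 1.21 in BALB/c and -0.16 in BALB-RAG. Cxcl9, a chemokine induced by interferon gamma, was 9.84, 9.12, 8.40 and 8.41 in BALB/c_OVA and below background on 11 of the other 12 arrays. The exception was BALB-RAG_OVA replicate 2, at 5.21, the array that was also high in T cell genes. The interaction of Cxcl9 was 5.87 ± 0.57, and 4.64 with values under log2 4 set to 4 (adjusted p = 1.85e-06, limma).

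Iigp1, an interferon-induced GTPase, was 8.01, 7.61, 8.64 and 8.13 in BALB/c_PBS and 10.48, 10.23, 10.85 and 10.52 in BALB/c_OVA. BALB-RAG_PBS arrays were at 7.59, 7.96, 7.86 and 8.17 and BALB-RAG_OVA arrays at 7.09, 6.89, 7.69 and 7.20, a lower mean with overlapping values. Its interaction was 3.10 ± 0.23 (adjusted p = 2.03e-06, limma), while the fall in BALB-RAG missed the threshold (adjusted p = 0.0711). Cxcl10 (2.76 ± 0.29), also induced by interferon, Cxcr6 (2.65 ± 0.31), a receptor of activated T cells, and the transcription factor Irf8 (1.61 ± 0.21) were positive too. Of 8 type 2 cytokine and receptor genes, 2 were called: the epithelial alarmin Il33 (1.30 ± 0.32) and Crlf2, the receptor of another alarmin (1.05 ± 0.19). That was 25.0% of the list, against 8.29% of all genes.

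T cell, B cell and antibody genes had positive interactions whose size rested in part on single arrays. Of 16 T cell genes, 11 were positive (median 1.91), of 13 B cell genes 7 (median 1.76) and of 8 immunoglobulin and plasma cell genes 4 (median 1.78), with none negative. Without BALB-RAG_OVA replicate 2 these counts were 12, 10 and 5. Igha, the constant region of immunoglobulin A, was 6.92, 7.86, 6.66 and 6.83 in BALB/c_PBS and 11.47, 10.83, 10.45 and 10.78 in BALB/c_OVA. Arrays labelled BALB-RAG_PBS held 10.79, 8.45, 9.04 and 10.72, and those labelled BALB-RAG_OVA 3.98, 10.97, 3.59 and 5.51. After PBS the arrays labelled BALB-RAG lay above those of BALB/c without overlap (difference 2.68, adjusted p = 0.169, limma), and 1 BALB-RAG_OVA array reached the level of BALB/c_OVA. The interaction of Igha was 7.55 ± 1.61 (adjusted p = 5.40e-03, limma) with that array and 9.18 without it, and 7.44 with values under log2 4 set to 4.

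Jchain, which joins antibody units into polymers, had 8.24 ± 2.05, and 6.79 with values under log2 4 set to 4, since 3 of its BALB-RAG_OVA arrays lay below background. Ighm, the heavy chain of immunoglobulin M, had 5.33 ± 1.21, and 6.45 without it. Cd28 (2.37 ± 0.34) and Ctla4 (1.98 ± 0.35), the activating and inhibitory receptors for Cd86, were also positive. So were Cd3e (2.04 ± 0.41), a chain of the T cell receptor complex, and the T lineage factor Bcl11b (2.56 ± 0.55). With values under log2 4 set to 4, Cd28 had 1.49, Ctla4 1.12 and Cd3e 1.45. The B cell receptors Fcer2a, Cd72 and Cd22 had 2.12 ± 0.48, 1.98 ± 0.47 and 1.46 ± 0.43. In refits that kept both replicate sets, Cd22 lost its call in 8 settings. Prdm1, which drives plasma cell fate, had 0.64 ± 0.17.

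Some antibody and T cell genes were called in BALB/c but not for the interaction. The light chain gene Igk rose by 4.03 in BALB/c, with an interaction of 3.75 ± 1.68 (adjusted p = 0.153, limma), and 5.27 without BALB-RAG_OVA replicate 2, where it was called (adjusted p = 5.91e-03). The other 3 arrays of that group were below background for Igk, and with values under log2 4 set to 4 its interaction was 2.36 (adjusted p = 0.286, limma). Cd3g, another chain of the T cell receptor complex, had 2.51 ± 0.83 (adjusted p = 0.0529) and was called without that array. Of 6 lymphoid follicle genes 2 were positive, the cytokine Ltb (2.30 ± 0.58) and the homing receptor Cxcr5 (1.27 ± 0.32). Of 9 natural killer cell genes 1 was, Klrg1 (2.29 ± 0.53), a receptor that activated T cells share. The shares called were 33.3% and 11.1%, the second near the 8.29% of all genes. The median of the natural killer cell genes was 0.98, but -0.19 in replicates 1 and 2 and 1.88 in replicates 3 and 4. Their mean level on the arrays labelled BALB-RAG was close to background, at 3.82 to 4.23 after PBS and 4.0 to 4.34 after OVA.

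**Figure D3:**
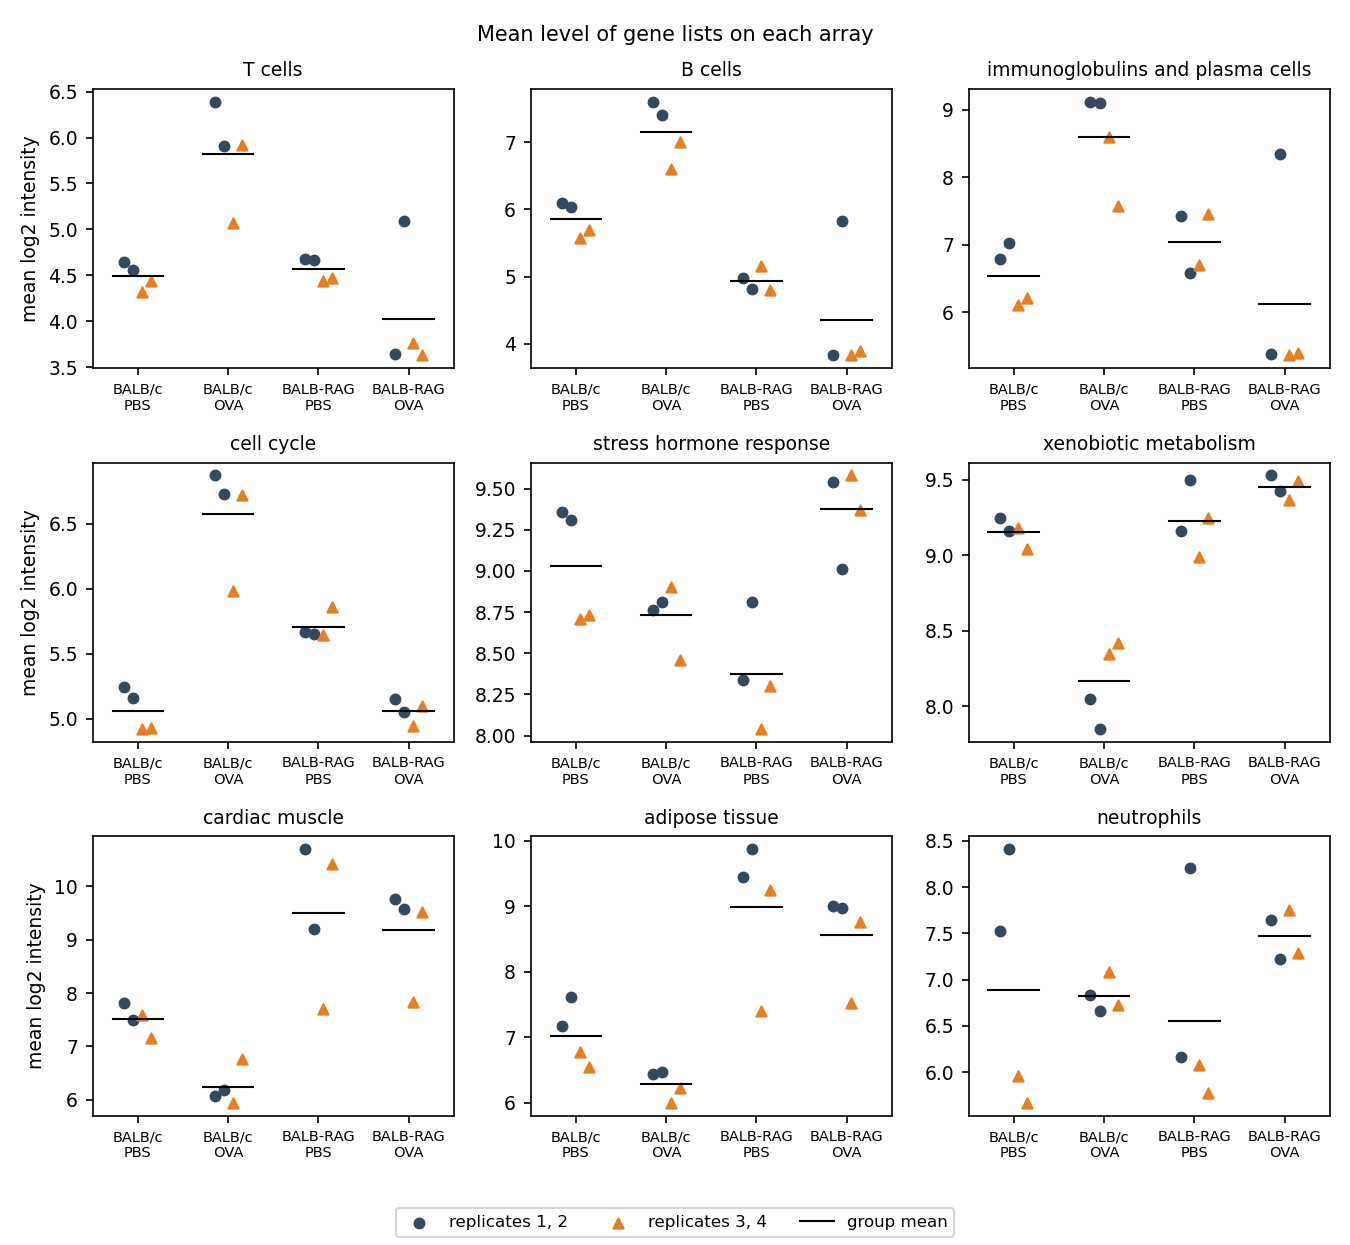
Mean log2 intensity of 9 gene lists, picked after their values were seen, on each array; circles are replicates 1 and 2, triangles replicates 3 and 4, and lines are group means. BALB-RAG_OVA replicate 2 stands above the other 3 arrays of its group in the T cell, B cell and immunoglobulin panels, at 5.09, 5.83 and 8.34.

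Proliferation genes rose in BALB/c, and those that changed in BALB-RAG fell. Of 49 cell cycle genes, 40 had a positive interaction and none a negative one, with a median of 1.93. The share of positive calls was thus 81.6%, against 8.29% of all genes. In BALB/c 43 rose after OVA (13.4% of all genes did), with a median response of 1.50, and in BALB-RAG 7 fell (0.399% of all genes did), with a median of -0.49. Mki67, a nuclear protein of dividing cells, was 6.41, 6.45, 6.55 and 6.93 in BALB/c_PBS and 9.07, 9.27, 8.84 and 9.52 in BALB/c_OVA. It was 7.20, 8.32, 7.95 and 7.75 in BALB-RAG_PBS and 6.08, 6.32, 5.59 and 6.65 in BALB-RAG_OVA. No array overlapped between exposures in either line, and the BALB-RAG_PBS arrays stood above all BALB/c_PBS arrays. The interaction of Mki67 was 4.23 ± 0.35 (adjusted p = 6.59e-06, limma), from a rise of 2.59 in BALB/c and a change of -1.64 in BALB-RAG.

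The level after PBS entered this result: over the 49 genes the BALB-RAG minus BALB/c difference had a median of 0.54 after PBS and -1.36 after OVA. Birc5, an inhibitor of cell death that acts in mitosis, had 4.78 ± 0.48. Rrm2, a subunit of the enzyme that makes deoxynucleotides, had 4.07 ± 0.39, and the cyclin Ccna2 3.64 ± 0.27. Cenpe, a kinesin of the centromere, had 4.02 ± 0.40, but was below background on all BALB/c_PBS and BALB-RAG_OVA arrays and had 2.05 with values under log2 4 set to 4. At the lower end of the 40 were Stmn1, a microtubule regulator, with 0.80 ± 0.20 and the replication clamp Pcna with 0.98 ± 0.16.

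Promoters of 3 proliferation genes that changed in both lines are shown because they moved together; the choice was made with their values known. They are RefSeq windows on GRCm38.p6, at chr7:135716330-135716629 on the minus strand for Mki67, chr12:24708004-24708303 on the plus strand for Rrm2 and chr3:135212313-135212612 on the plus strand for Cenpe. Capitals mark CCAAT, bound by NF-Y, and TTTGAA, the core of the CHR element of cell cycle genes, on either strand.
Mki67: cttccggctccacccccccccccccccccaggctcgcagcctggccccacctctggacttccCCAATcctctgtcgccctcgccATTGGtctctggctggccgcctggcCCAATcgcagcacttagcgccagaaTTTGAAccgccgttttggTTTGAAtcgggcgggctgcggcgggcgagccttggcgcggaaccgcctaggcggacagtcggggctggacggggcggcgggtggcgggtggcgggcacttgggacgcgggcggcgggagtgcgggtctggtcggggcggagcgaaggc
Rrm2: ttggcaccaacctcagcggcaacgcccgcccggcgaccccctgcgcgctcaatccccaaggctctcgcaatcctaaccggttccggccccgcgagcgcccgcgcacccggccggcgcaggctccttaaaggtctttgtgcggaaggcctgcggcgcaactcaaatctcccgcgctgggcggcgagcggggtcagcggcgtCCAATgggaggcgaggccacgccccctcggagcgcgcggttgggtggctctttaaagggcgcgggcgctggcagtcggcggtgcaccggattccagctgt
Cenpe: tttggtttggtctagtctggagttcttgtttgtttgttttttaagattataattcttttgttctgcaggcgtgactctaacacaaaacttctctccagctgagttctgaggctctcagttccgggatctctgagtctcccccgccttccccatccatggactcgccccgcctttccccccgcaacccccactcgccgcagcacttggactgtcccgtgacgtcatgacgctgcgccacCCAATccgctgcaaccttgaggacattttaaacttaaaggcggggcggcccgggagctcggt
The window of Mki67 holds 3 CCAAT and 2 TTTGAA matches, and those of Rrm2 and Cenpe 1 CCAAT match each. Over the 40 promoters of called cell cycle members (37 genes), 72.5% hold CCAAT and 37.5% TTTGAA. The 9 promoters of called type 2 macrophage genes hold CCAAT in 44.4% and TTTGAA in 44.4%, and the 14 of called stress hormone genes in 28.6% and 0.0%. Among all 32851 promoters of that length the shares were 37.4% and 17.9%, and among those of tested genes 37.1% and 12.3%. Another 4 patterns were searched in the same 40, namely TTTCGCGC (7.5%, against 0.323% of all), TTCNNNGAA (5.0%, against 8.3%), the STAT6 pattern with a longer spacer (2.5%, against 6.95%) and ACANNNTGT (5.0%, against 6.85%).

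Extracellular matrix genes followed the same crossed pattern in part. Of 30 tested, 14 had a positive interaction and 3 a negative one, with a median of 0.62. In BALB/c 12 rose and 3 fell (13.4% and 11.7% of all genes), and in BALB-RAG 1 rose and 8 fell (0.522% and 0.399% of all genes). Col1a1, the main chain of fibrillar collagen, was 8.51, 8.62, 7.97 and 7.87 in BALB/c_PBS and 9.71, 10.41, 9.36 and 9.38 in BALB/c_OVA. Its BALB-RAG_PBS arrays stood at 9.96, 10.06, 9.19 and 9.20 and its BALB-RAG_OVA arrays at 8.81, 7.89, 8.06 and 8.43. The exposures did not overlap in either line, while the BALB-RAG_PBS arrays overlapped the BALB/c_OVA arrays and the BALB-RAG_OVA arrays overlapped the BALB/c_PBS arrays. The interaction of Col1a1 was 2.78 ± 0.29 (adjusted p = 3.09e-05, limma).

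Other collagens with called opposite responses were Col1a2 (2.63 ± 0.30), Col5a2 (1.82 ± 0.22), Col14a1, Col6a2 and Col18a1. The gelatinase Mmp2 had 1.66 ± 0.16, elastin (Eln) 2.16 ± 0.38 and the glycoprotein Tnc 2.31 ± 0.43. The 3 negative members were the protease Mmp3 (-1.63 ± 0.26), its inhibitor Timp3 (-1.41 ± 0.20) and the collagen cross-linking enzyme Lox (-1.15 ± 0.21). Lox was the 1 list member that rose in BALB-RAG, by 1.55, with a response of 0.41 in BALB/c.

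**Figure D4:**
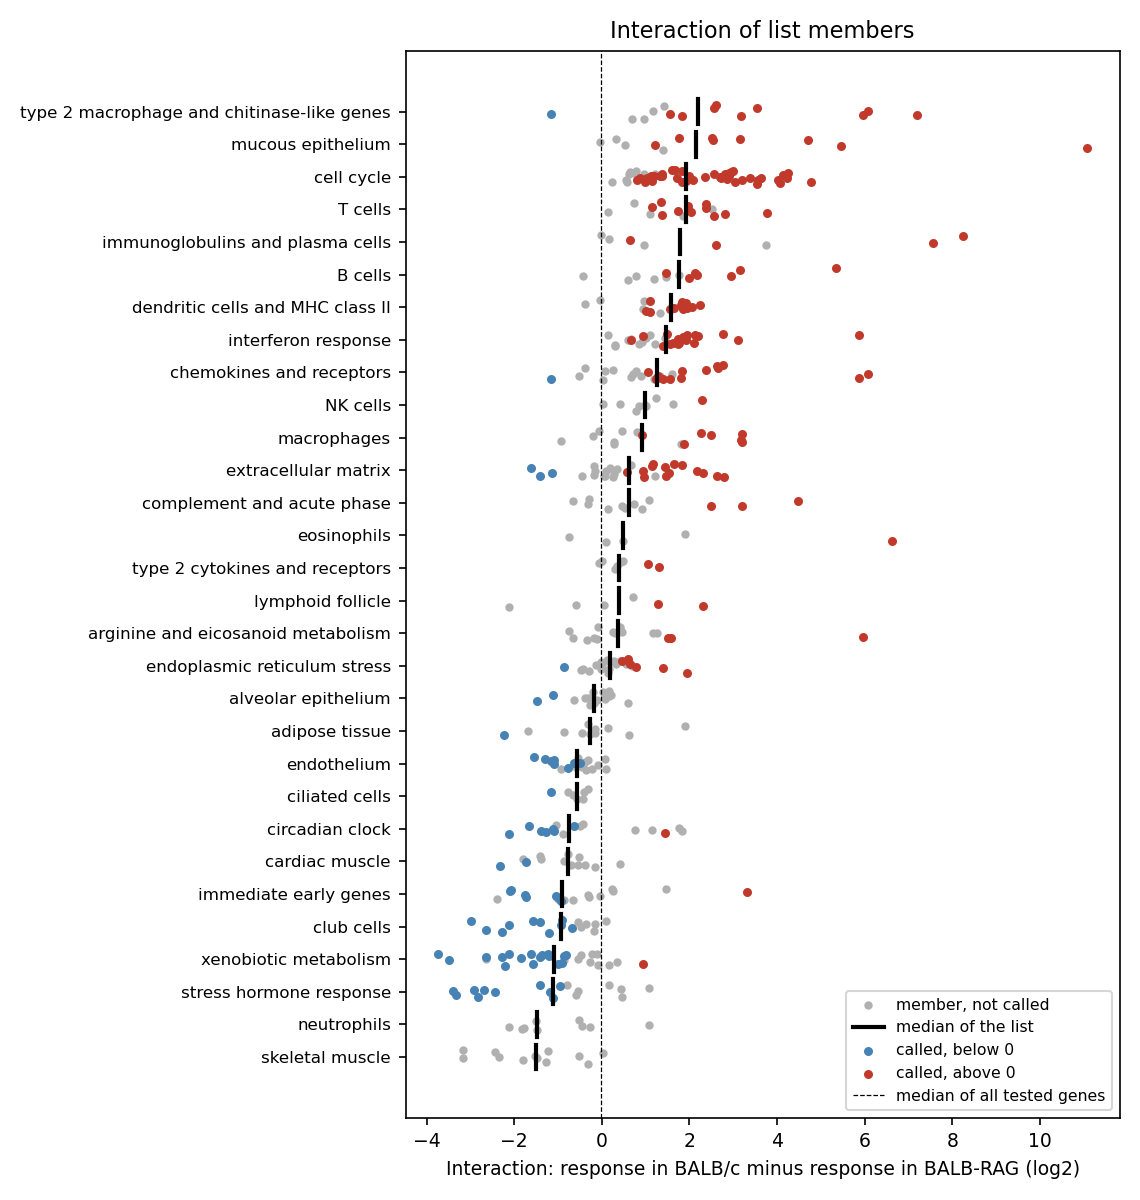
Interaction (log2, response in BALB/c minus response in BALB-RAG) of each tested member of the gene lists; red and blue points were called by limma, grey points were not, thick bars are list medians and the dashed line is the median of all 7276 genes. The medians run from 2.19 for the type 2 macrophage list to -1.51 for skeletal muscle, whose members were not called.

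Among the negative interactions were genes of the stress hormone response, several of which rose in BALB-RAG and fell in BALB/c. Of 17 genes known to respond to glucocorticoids or fasting, 10 had a negative interaction and none a positive one, with a median of -1.13. In BALB-RAG 7 rose (0.522% of all genes did), with a median of 1.00. In BALB/c 6 fell and 3 rose (11.7% and 13.4% of all genes did), with a median of -0.40. Cebpd, a transcription factor induced by glucocorticoids, was 11.01, 9.91, 10.71 and 10.69 in BALB/c_PBS and 9.38, 9.07, 8.97 and 9.30 in BALB/c_OVA. Levels in BALB-RAG_PBS were 8.63, 9.60, 9.11 and 8.31, and those in BALB-RAG_OVA 10.59, 10.30, 10.36 and 10.48. The exposures did not overlap in either line, and the interaction was -2.92 ± 0.36 (adjusted p = 1.33e-04, limma).

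Angptl4, a secreted inhibitor of lipoprotein lipase, was 7.07, 7.34, 6.34 and 6.79 in BALB-RAG_PBS and 9.21, 8.31, 9.82 and 9.33 in BALB-RAG_OVA, with an interaction of -3.32 ± 0.48. Pdk4, which slows glucose oxidation in fasting, had -3.40 ± 0.46, and Fam107a, a stress-induced actin-binding protein, -2.84 ± 0.39. Tsc22d3, the glucocorticoid-induced leucine zipper, had -2.43 ± 0.31 and Errfi1, a feedback inhibitor of epidermal growth factor receptor, -2.70 ± 0.34. Lower after PBS on the arrays labelled BALB-RAG than in BALB/c were Cebpd (by a difference of -1.67), Angptl4 (-1.76), Fam107a (-1.97) and Errfi1 (-1.48). Each difference was called by limma, as for 8.73% of all genes (4.16% higher and 4.56% lower on the BALB-RAG arrays).

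More immediate early genes and clock genes had negative than positive interactions, but not in each replicate set. Of 18 immediate early genes, transcribed within minutes of a stimulus, 7 were negative and 1 positive, with a median of -0.90. In replicates 1 and 2 alone 2 were called each way (median -0.47), and in replicates 3 and 4 alone 3 were negative and 0 positive (-1.13). Among all 7276 genes, 266 were negative and 338 positive in replicates 1 and 2 alone. In replicates 3 and 4 alone 57 were negative and 155 positive. Maff (-2.10 ± 0.32), Klf4 (-1.75 ± 0.27) and Jun (-0.99 ± 0.18) are transcription factors, and the positive one was Rgs1, a regulator of G protein signalling in leukocytes (3.30 ± 0.66). Csrnp1, another stimulus-induced nuclear protein outside the list, had -2.49 ± 0.53. After PBS the mean level of the 18 genes was 8.06 to 9.32 in BALB/c and 7.36 to 7.49 on the arrays labelled BALB-RAG. The BALB-RAG minus BALB/c difference had a median of -1.14 after PBS and -0.38 after OVA. After PBS it was called by limma for Maff (-1.815), Klf4 (-1.33), Jun (-0.545) and Csrnp1 (-1.79), and not for Rgs1 (-0.66). Of all genes, 4.56% were called lower. Nr4a1, an immediate early nuclear receptor, fell by 2.70 in BALB/c, but its BALB/c_PBS arrays ranged from 8.09 to 12.24 and its interaction was not called (-2.40 ± 0.82, adjusted p = 0.058, limma).

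Of 16 circadian clock genes, 7 were negative and 1 positive, with a median of -0.76. In replicates 1 and 2 alone 3 were negative and 0 positive (median -0.44), and in replicates 3 and 4 alone 4 were called each way (-0.86). Among all 7276 genes, 266 were negative and 338 positive in replicates 1 and 2 alone. In replicates 3 and 4 alone 57 were negative and 155 positive. The repressors Cry1 (-1.67 ± 0.27) and Per2 (-1.39 ± 0.27) and the receptor Rora (-1.08 ± 0.17) were negative, and the repressor Bhlhe40 was positive (1.44 ± 0.29). Of the 8 genes not called, Dbp (1.757 ± 0.816), Nr1d1 (1.835 ± 0.962), Nr1d2 (1.146 ± 0.565) and Per3 (0.764 ± 0.371) had positive estimates. Arntl (-1.048 ± 0.486), Nfil3 (-0.878 ± 0.404), Hlf (-0.495 ± 0.314) and Tef (-0.421 ± 0.358) had negative ones. The members thus did not all move together, and the median hides this. No source used here gives the hour of harvest, and its part in these values was not tested. Of 5 probe sets of Rora, 4 were negative and 1 was not (0.29 ± 0.34).

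Detoxifying enzymes and club cell genes fell in BALB/c, 21 of 28 and 11 of 16 (11.7% of all genes did). Of 28 xenobiotic metabolism genes, 17 had a negative interaction and 1 a positive one (Gsto1, 0.93 ± 0.29), with a median of -1.10. Of 16 club cell genes, the secretory cells of the airway lining, 10 were negative and none positive, with a median of -0.92. The lists overlap, so their counts are not separate results. Cyp2b10, Aldh1a1, Gsta3, Gstm1, Fmo2, Ces1d and Sult1d1 were called and stand in both, as does Gsta4, which was not called. Pon1, an esterase, was 10.03, 10.18, 9.84 and 9.58 in BALB/c_PBS and 6.48, 6.22, 7.28 and 7.28 in BALB/c_OVA. Levels were 8.96, 9.93, 8.98 and 8.92 in BALB-RAG_PBS and 9.43, 10.18, 9.40 and 9.38 in BALB-RAG_OVA. The BALB/c_OVA arrays stood below all others, and the interaction was -3.49 ± 0.41 (adjusted p = 8.10e-05, limma).

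Fmo2, a flavin monooxygenase of lung, was 11.78, 11.59, 11.96 and 12.04 in BALB/c_PBS and 10.03, 9.61, 11.18 and 10.43 in BALB/c_OVA, with an interaction of -2.11 ± 0.30. The sulfotransferases Sult1d1 and Sult1a1 had -2.64 ± 0.36 and -2.21 ± 0.29, and the glutathione transferases Gsta3 and Gstm1 -2.28 ± 0.38 and -1.58 ± 0.21. Cyp2b10, a cytochrome P450, had -1.41 ± 0.21. Bpifa1, an antimicrobial surfactant protein of the upper airway, had -2.99 ± 0.63. Igfbp3, which binds insulin-like growth factors, had -2.82 ± 0.45.

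Endothelial genes fell in BALB/c for 13 of 20 (11.7% of all genes did). Of these 20, 8 had a negative interaction (40.0%, against 8.4% of all genes) and none a positive one, with a median of -0.57. Ptprb, a phosphatase of vessel walls, was 11.70, 11.61, 12.23 and 12.18 in BALB/c_PBS and 10.58, 10.50, 11.19 and 11.36 in BALB/c_OVA. The interaction of Ptprb was -1.30 ± 0.17 (adjusted p = 1.50e-04, limma), and the vessel growth factor receptors Flt1 and Tek and the adrenomedullin co-receptor Ramp2 had -1.16 ± 0.15, -1.09 ± 0.17 and -1.10 ± 0.20. Of 16 alveolar epithelium genes 2 were negative, a share of 12.5% near the 8.4% of all genes: Rtkn2 (-1.48 ± 0.16) and Akap5 (-1.11 ± 0.31). The median of that list was -0.18, and Akap5 lost its call in 6 settings that kept both replicate sets. Of 7 ciliated cell genes 1 was called, Tppp3 (-1.15 ± 0.26), a share of 14.3% near that of all genes. Of 26 endoplasmic reticulum stress genes 6 were positive, among them Edem1 (1.94 ± 0.25), Sdf2l1 (1.39 ± 0.35) and Sec61b (0.65 ± 0.13), and 1 was negative, Herpud1 (-0.86 ± 0.18). The shares were 23.1% positive and 3.85% negative, against 8.29% and 8.4% of all genes.

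Cyp2e1, an alcohol-oxidising cytochrome P450 also made by fat, had the largest negative estimate. It was 7.66, 8.95, 7.42 and 7.02 in BALB/c_PBS and 5.60, 5.95, 4.03 and 5.06 in BALB/c_OVA. BALB-RAG_PBS arrays held 9.27, 9.08, 8.09 and 9.42 and BALB-RAG_OVA arrays 10.01, 10.36, 9.91 and 10.11, with no overlap between exposures in either line. The interaction was -3.74 ± 0.49 (adjusted p = 1.76e-04, limma), while the rise in BALB-RAG, 1.14, missed the threshold (adjusted p = 0.154). The mean level of 11 adipose tissue genes differed between groups as well, at 6.54 to 7.62, 6.00 to 6.47, 7.40 to 9.87 and 7.53 to 9.01 in BALB/c_PBS, BALB/c_OVA, BALB-RAG_PBS and BALB-RAG_OVA. Of these genes only Adipoq, the adipocyte hormone adiponectin, was called (-2.23 ± 0.59), a share of 9.09% near the 8.4% of all genes.

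Heart genes differed between groups in the same order. The mean of 13 cardiac muscle genes was 7.16 to 7.81 and 5.94 to 6.76 in BALB/c after PBS and OVA, and 7.71 to 10.70 and 7.83 to 9.77 in BALB-RAG. Of these 13, Sln (-2.33 ± 0.70) and Myl4 (-1.74 ± 0.55), of the calcium pump and the myosin of the atrium, were called, as was Myoz2, a sarcomere protein outside the list (-2.51 ± 0.82, adjusted p = 0.0491, limma). None of the 3 was called without BALB-RAG_OVA replicate 2 (adjusted p = 0.0644, 0.0791 and 0.0784), where the estimates were -2.205, -1.664 and -2.475. These calls lay near the threshold in general. In refits that kept both replicate sets, Sln lost its call in 12 settings, and Myl4 and Myoz2 in 15 each. The called cardiac genes were 15.4% of their list, against 8.4% of all genes. None of 12 skeletal muscle genes was called by limma and 0 had an unadjusted p under 0.05 (Myh4, -1.27 ± 0.88). Their mean level stood apart on 4 arrays, at 8.15 on BALB/c_PBS replicate 1, 8.65 on BALB-RAG_PBS replicate 2 and 8.0 and 7.71 on BALB-RAG_OVA replicates 1 and 4, against 3.58 to 4.80 on the others. Slc4a1, the 1 erythroid gene tested, had -0.37 ± 1.34. The part of tissue around the lung in these values, and in that of Cyp2e1, was not tested.

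A few genes answered OVA in both lines. Of the 1820 genes called in BALB/c and the 67 called in BALB-RAG, 43 were shared, 2.36% and 64.2% of those lists. Their responses were opposite for 27, of which 15 rose in BALB/c and 12 in BALB-RAG, and all 27 interactions were called, which opposite responses largely fix. The other 16 moved the same way, 12 up and 4 down, and the interaction was called for 2 of them, Ly6i and Cox6b2.

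Lcn2, an iron-sequestering protein of innate defence, was 9.65, 10.21, 8.44 and 8.09 in BALB/c_PBS and 12.62, 12.77, 12.17 and 12.30 in BALB/c_OVA. It was 9.21, 10.43, 8.54 and 8.82 in BALB-RAG_PBS and 12.03, 11.10, 11.76 and 11.32 in BALB-RAG_OVA, again with no overlap between exposures. The rise was 3.37 in BALB/c and 2.30 in BALB-RAG, and the interaction, 1.07 ± 0.48 with a 95% interval of 0.05 to 2.10, missed the threshold after adjustment (adjusted p = 0.15, limma). Cd14, the co-receptor for bacterial lipopolysaccharide, rose by 1.02 and 1.09, with an interaction of -0.07 (95% interval -0.64 to 0.50). The complement factor Cfb had 0.91 (-0.14 to 1.96), the cytokine receptor chain Csf2rb 0.34 (-0.39 to 1.07) and the pantetheinase Vnn1 0.45 (-0.18 to 1.07). The intervals of these last 4 genes reach to both sides of 0. Ly6i, a surface protein induced in myeloid cells, rose by 4.00 and 1.89, with a called interaction of 2.11 ± 0.36. Cox6b2, a respiratory chain subunit, changed by -0.68 in BALB/c and -1.70 in BALB-RAG, with an interaction of 1.02 ± 0.25.

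The interaction differed between the replicate sets for 1 gene at the adjusted threshold (0.0137%; 332 genes at an unadjusted p under 0.05, limma). Mmp13, a collagenase, was 8.80 and 9.83 on BALB/c_OVA replicates 1 and 2 and 5.69 and 5.58 on replicates 3 and 4, and under log2 4 on the other 12 arrays. Its interaction was 6.67 in replicates 1 and 2 and 1.93 in replicates 3 and 4, a difference of 4.75 that was not called with values under log2 4 set to 4. Over both sets it was 4.30 ± 0.98, and 3.47 with that floor.

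**Figure D5:**
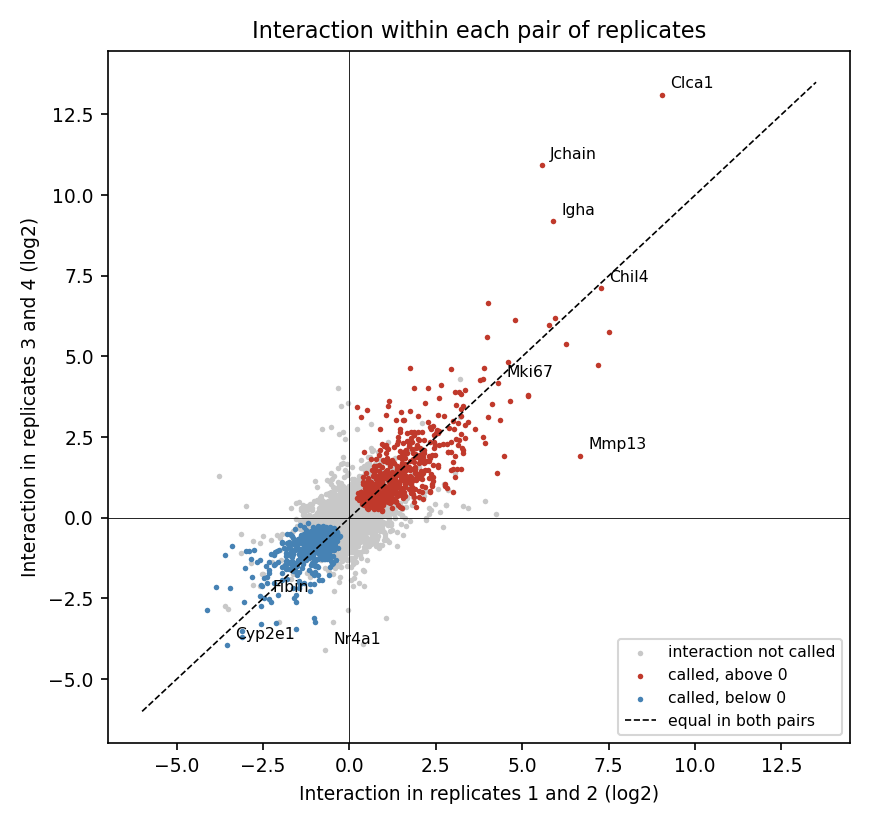
Interaction (log2) of each of the 7276 genes in replicates 1 and 2 (horizontal axis) and in replicates 3 and 4 (vertical axis), from the model with 8 means; red and blue points were called by limma over all arrays and the dashed line marks equal values. Called genes have the same sign in both sets, and Mmp13 stands off the line at 6.67 and 1.93.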

How the data were processed

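Total RNA of whole lung (6 µg per array) was hybridised to Affymetrix arrays. The authors deposited 1 table of linear intensity for the 16 arrays, background-corrected and normalised with GCRMA per the submitters' processing notes, with the version not given in the sources used here. Its depth is that of arrays, whose number limits the precision.

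Intensity as deposited was taken to log2. Labels were realigned in 3 stretches: 14300 labels, 13146 with 1 gene symbol and 1154 with several or none. The correlation of probe sets of the same gene set the position of the stretch of 7500 labels only. The stretches of 4000 and 2800 labels were moved as first recorded. At those positions the median correlation of such probe sets was 0.6658 and 0.6303, against 0.1613 and 0.1522 as deposited. The probe set with the highest mean stood for a gene, and 7276 genes over log2 4 on at least 4 arrays were tested. limma 3.58.1 in R 4.3.3 fitted 4 group means and a replicate-set term (11 residual degrees of freedom), with Benjamini-Hochberg adjustment at 0.05 over all genes tested. The difference between sets came from a model with 8 means. In data simulated for the interaction over 7276 genes, 32 of 50 changes of 1, 46 of 50 of 2 and 49 of 50 of 3 were recovered. So were 33 of 50 changes of -1, with 6 false calls. The simulation changed fewer genes than were called here, in BALB/c_OVA alone, with independent normal noise and no deviant array. Recovery in the real data may therefore differ.

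The comparison, its members and the 32 gene lists were chosen with earlier results of these data known. Genes were named by size of interaction (12 each way), by the smallest p in each list (up to 4), and by their calls in both lines. Further list members, the promoters, the 6 motifs and the panels of the plots were chosen after their values were seen. Alternatives were a replicate block, each set alone, floors and filters on low values, other scalings, other probe set rules, and leaving out each array. The opposite reading of the second stretch, and that stretch left out, were chosen after seeing the data.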

Additional observations from a re-analysis of the deposited data

Results flagged for a closer look

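Of 648 groups of 4 arrays looked at (132 named genes and 30 lists of over 1 gene), 43 held an array far from the other 3, and chance gives about 1 in 20. BALB-RAG_OVA replicate 2 was that array for 15 of them. Its mean level was 5.09 for T cell genes (others 3.63 to 3.76), 5.83 for B cell genes (3.83 to 3.90), 8.34 for immunoglobulin and plasma cell genes (5.36 to 5.40) and 10.17 for alveolar epithelium (10.38 to 10.41). It was high for Clca1 (6.11, others 2.78 to 2.86), Jchain (10.52, others 1.73 to 2.49), Cxcl9 (5.21, others 2.58 to 2.75), Ighm (9.58, others 4.43 to 5.05), Igk (9.29, others 2.12 to 2.36) and Cd3g (6.58, others 2.78 to 3.22). A light chain variable gene stood at 5.82 (others 2.91 to 3.02). It was also high for Pon1 (10.18), Gstm1 (11.25) and Bhlhe40 (8.56) and low for Cfb (7.18, others 8.68 to 8.85).

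Skeletal muscle genes had a mean level of 8.15 on BALB/c_PBS replicate 1 (others 3.68 to 3.93) and 8.65 on BALB-RAG_PBS replicate 2 (others 4.38 to 4.80), and Myh4 was 6.29 on the first of these. BALB-RAG_OVA replicate 3 was low in cardiac (7.83, others 9.53 to 9.77) and adipose genes (7.53, others 8.76 to 9.01). BALB-RAG_PBS replicate 2 was high in neutrophil (8.21, others 5.78 to 6.16) and lymphoid follicle genes (6.89), Pon1 (9.93) and Nr4a1 (8.05), and low for Rtkn2 (8.99). BALB/c_OVA replicate 3 was low in cell cycle genes (5.98, others 6.72 to 6.87) and Rrm2 (7.94, others 9.08 to 9.23), and high for Ptger4 (8.46) and Il5ra (4.78).

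The other values were single ones. BALB/c_PBS replicate 1 was high for Agr2 (4.62) and Itln1 (3.74), and replicate 2 low for Csrnp1 (6.69) and Klf4 (11.22) and at 2.84 for Cxcl9, below background. BALB/c_PBS replicate 4 was low for Myl4 (8.64). BALB/c_OVA replicate 1 was high for Nr4a1 (8.22), replicate 2 for extracellular matrix genes (8.64), and replicate 4 low for Jchain (8.40, others 11.80 to 12.37). BALB-RAG_PBS replicate 3 was low for Sult1a1 (8.09), and replicate 4 high in cell cycle genes (5.86) and at 3.16 for Rnase2a, below background. BALB-RAG_OVA replicate 1 was high in immediate early genes (7.69) and replicate 4 low for Eln (7.94).

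The OVA response differed between the lines for 1214 genes by the test of the interaction itself. The interaction of Mmp13 differed by 4.75 between replicates 1 and 2 and replicates 3 and 4, by the test of that difference in limma.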

How the results depend on the processing

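The 1214 interaction calls (603 positive, 611 negative) came to 618 (337 and 281) without the replicate-set term, all of them among the 1214. They came to 604 (338 and 266) in replicates 1 and 2 alone, of which 509 were shared, and to 212 (155 and 57) in replicates 3 and 4 alone, of which 194 were shared. Over all rows of the table, which need no names, 3088 probe sets were called (1363 and 1725). Without the second stretch 804 genes were called, 377 of them positive. Calls in BALB/c, 1820, came to 1128 without the set term, 1078 and 547 in the single sets, 4760 over all rows and 1160 without the second stretch.

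Calls in BALB-RAG, 67, were the least steady: 12 without the set term, 3 and 5 in the single sets, 112 with an intensity trend and robust prior, 128 over all rows and 44 with the second stretch read the other way. Leaving out 1 array gave 984 to 1240 calls for the interaction, 494 to 617 positive, 465 to 690 negative, 1464 to 1903 in BALB/c and 20 to 81 in BALB-RAG. The last moved by over 1.5 times without BALB-RAG_PBS replicate 1 (27), 3 (33) or 4 (44), BALB-RAG_OVA replicate 1 (23), 3 (30) or 4 (20), BALB/c_OVA replicate 1 (43) or BALB/c_PBS replicate 3 (43). The 1 difference between sets came to 0 with the floor at log2 4, with the filter at log2 6 and over all rows, 2 after quantile normalisation and 10 with no filter. The cause was not tested for any of these beyond fewer arrays or other rows.

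Centring each array on its median gave 565 positive and 775 negative interactions, with the median of all genes at -0.06. With the replicate number as a block, 1152 interactions were called (587 and 565), 1111 of them shared, and 41 genes in BALB-RAG. Deviations of samples with the same number correlated at 0.025 to 0.497, not all over 0.1, and those of other numbers of the same set at 0.123 to 0.475, so the numbers were not taken to pair samples. Of 2532 refits of the 92 named called genes, 2406 kept the call, 126 lost it and 0 reversed. Uncalled genes near 0 changed sign: Slc4a1 (-1.48 to 0.68 when leaving out 1 array) in replicates 3 and 4 (0.41) and without BALB-RAG_PBS replicate 1 (0.68), BALB/c_PBS replicate 2 (0.16) or BALB-RAG_OVA replicate 4 (0.052), Csf2rb in replicates 3 and 4 (-0.10), and Cd14 (-0.26 to 0.076 when leaving out 1 array) without BALB/c_PBS replicate 1 (0.002) or 2 (0.042) or BALB-RAG_OVA replicate 3 (0.076). Values under log2 4 carry no order.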
